A study of Homo sapiens with 6 samples.

Results

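The proteasome genes were followed in Daoy cells whose unfolded protein response (UPR) had been switched on with thapsigargin. They were chosen by name alone: every gene whose symbol in the platform annotation began with PSMA, PSMB, PSMC, PSMD, PSME, PSMF or PSMG and a digit, without antisense transcripts and pseudogenes. Of the 19775 genes that had a probe set of their own on the array, 44 fitted this rule, and 43 of them were bright enough to be tested. They fell into 14 genes of the core particle, 3 inducible subunits of the immunoproteasome, 14 genes of the regulatory cap, 7 assembly chaperones, 4 activators or inhibitors, and 2 genes that are only named after a subunit. Daoy is an established human medulloblastoma cell line, so all values describe the cells of 1 tumour grown in culture. PSMA6 and PSME2 were read only by probe sets shared with another gene, and PSMB11, PSMC5, PSMD7 and PSMD13 had no probe set of their own in the annotation used, so these 6 were not analysed here. Total RNA came from cells left untreated, from cells given 1 µM thapsigargin for 3 h and from cells given it for 8 h, with 2 arrays in each group. The untreated cells served both times, and the labels name no vehicle for them.

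The proteasome is the barrel-shaped protease that degrades proteins tagged with ubiquitin. Its core particle is built from alpha rings, which form the gate, and beta rings, which carry the cutting sites. The cap binds the barrel, unfolds the tagged protein with a ring of ATPases and removes its ubiquitin. Immune cells and cells exposed to interferon replace the cutting subunits by inducible ones and so make the immunoproteasome. Misfolded proteins of the endoplasmic reticulum (ER) are pulled back into the cytosol and end in the proteasome, a route called ER-associated degradation. Thapsigargin blocks the Ca2+ ATPase of the ER, which empties its calcium store and raises the UPR. When proteasome activity is limiting, mammalian cells can raise the subunit genes together through the transcription factor NFE2L1, which acts at antioxidant response elements in their promoters.

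The arrays were Affymetrix arrays on which a set of short oligonucleotides, the probe set, reads a transcript. Values are MAS5 signals, a linear brightness scaled to the same trimmed mean on each of the 6 arrays, so each level is relative to the rest of the RNA. In RNA of whole cultures, fewer cells of a type and less RNA per cell cannot be told apart. Of 6 UPR genes, all were higher on both arrays at both times, with a median log2 fold change of 2.32 at 3 h and 2.98 at 8 h. The test that is used for the proteasome genes called 1 of these 6 at 3 h and 4 at 8 h, against 6 and 6 with the replicate block. A gene that is higher on all its treated arrays thus need not pass it with 2 arrays a group. DNAJB9, an ER co-chaperone, had signals of 1671 and 2096 in untreated cells, 14419 and 14443 at 3 h, and 22367 and 16833 at 8 h. It rose at both times (limma, Benjamini-Hochberg adjusted p = 0.0084 and 0.0037). Of 12 neural and progenitor markers, 9 passed the signal filter and VIM ran from 31016 to 52822, while ATOH1, GFAP and SYP did not pass. None of the 9 passed the test. Before adjustment, p was under 0.05 at 8 h for 1 that was higher and 3 that were lower, against 12.1% of all genes in either direction. With the replicate block OLIG2 was called higher at 8 h, against 4.76% of all genes, and GLI2, SOX2 and SOX9 lower, against 3.79%. The spiked hybridisation controls averaged 9202 to 14066 on the arrays numbered replicate 1, against 3314 to 3557 on those numbered replicate 2. These controls were read after the scaling of each array, and why they differ by number was not tested. Changes were also taken within each replicate number and in a fit with that number as a block.

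No proteasome gene passed the test at either time. At 3 h, 0 of 43 were called higher and 0 lower at an adjusted p under 0.05, against 0.0701% and 0% of the 12839 genes tested. At 8 h, 0 of 43 were called in either direction, against 0.646% of all genes called higher and 0.21% called lower. The replicate block called none of them either, although it raised the shares of all genes to 1.17% higher and 0.0779% lower at 3 h and to 4.76% higher and 3.79% lower at 8 h. A local pooled error test, the kind of test the study used, also called 0 of 43, against 0.296% of all genes at 3 h and 1.26% at 8 h. Even before adjustment, 0 of 43 had p under 0.05 at 3 h and 0 of 43 at 8 h, against 4.5% and 12.1% of all genes. With the block, 3 genes had an unadjusted p under 0.05 at 3 h, against 13.1% of all genes, and 4 at 8 h, against 25%. A p that misses the threshold does not show that a gene did not change, so the intervals are given as well.

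The log2 fold changes of the 43 genes spanned a narrow range. They ran between -0.44 and 0.29 at 3 h, and between -0.56 and 0.32 at 8 h. These values come from the brightest probe set of each gene, and over all 75 tested probe sets of the genes they ran between -1.07 and 1.24 at 3 h and between -0.67 and 0.55 at 8 h. The 95% interval of the fold change lay within 2-fold in both directions for 41 of 43 genes at 3 h and 41 of 43 at 8 h, against 54.3% and 46.3% of all genes tested. The exceptions were PSMB10 and PSMC3 at 3 h, and PSMB10 and PSMC3IP at 8 h. The standard deviation of the log2 fold change over the genes was 0.14 at 3 h and 0.15 at 8 h, against 0.53 and 0.65 over all genes. Bright probe sets vary less in general, so the 28 proteasome genes with a mean signal of at least 5000 were set beside the 1261 genes as bright. The interval lay within 2-fold for 28 of 28 of them at both times, against 84% of the equally bright genes at 3 h and 78% at 8 h, and over all 75 probe sets of the 43 genes for 82.7% and 80%. The median absolute log2 fold change of the 28 genes was 0.12 at 3 h and 0.08 at 8 h, against 0.12 and 0.15 in the equally bright genes. Smaller changes were less well bounded. The interval lay within 1.5-fold for 6 genes at 3 h and 8 genes at 8 h, that is 14% and 18.6%, against 9.19% and 7.42% of all genes. Among the 28 bright genes this held for 17.9% and 25%, against 20.7% and 17% of the equally bright genes. With the replicate block it held for 37 and 38 of the 43, against 4710 and 3808 of the 12839 genes tested. Among the 28 bright genes the block gave 27 at 3 h and 28 at 8 h, against 1088 and 973 of the 1261 equally bright genes.

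**Figure D1:**
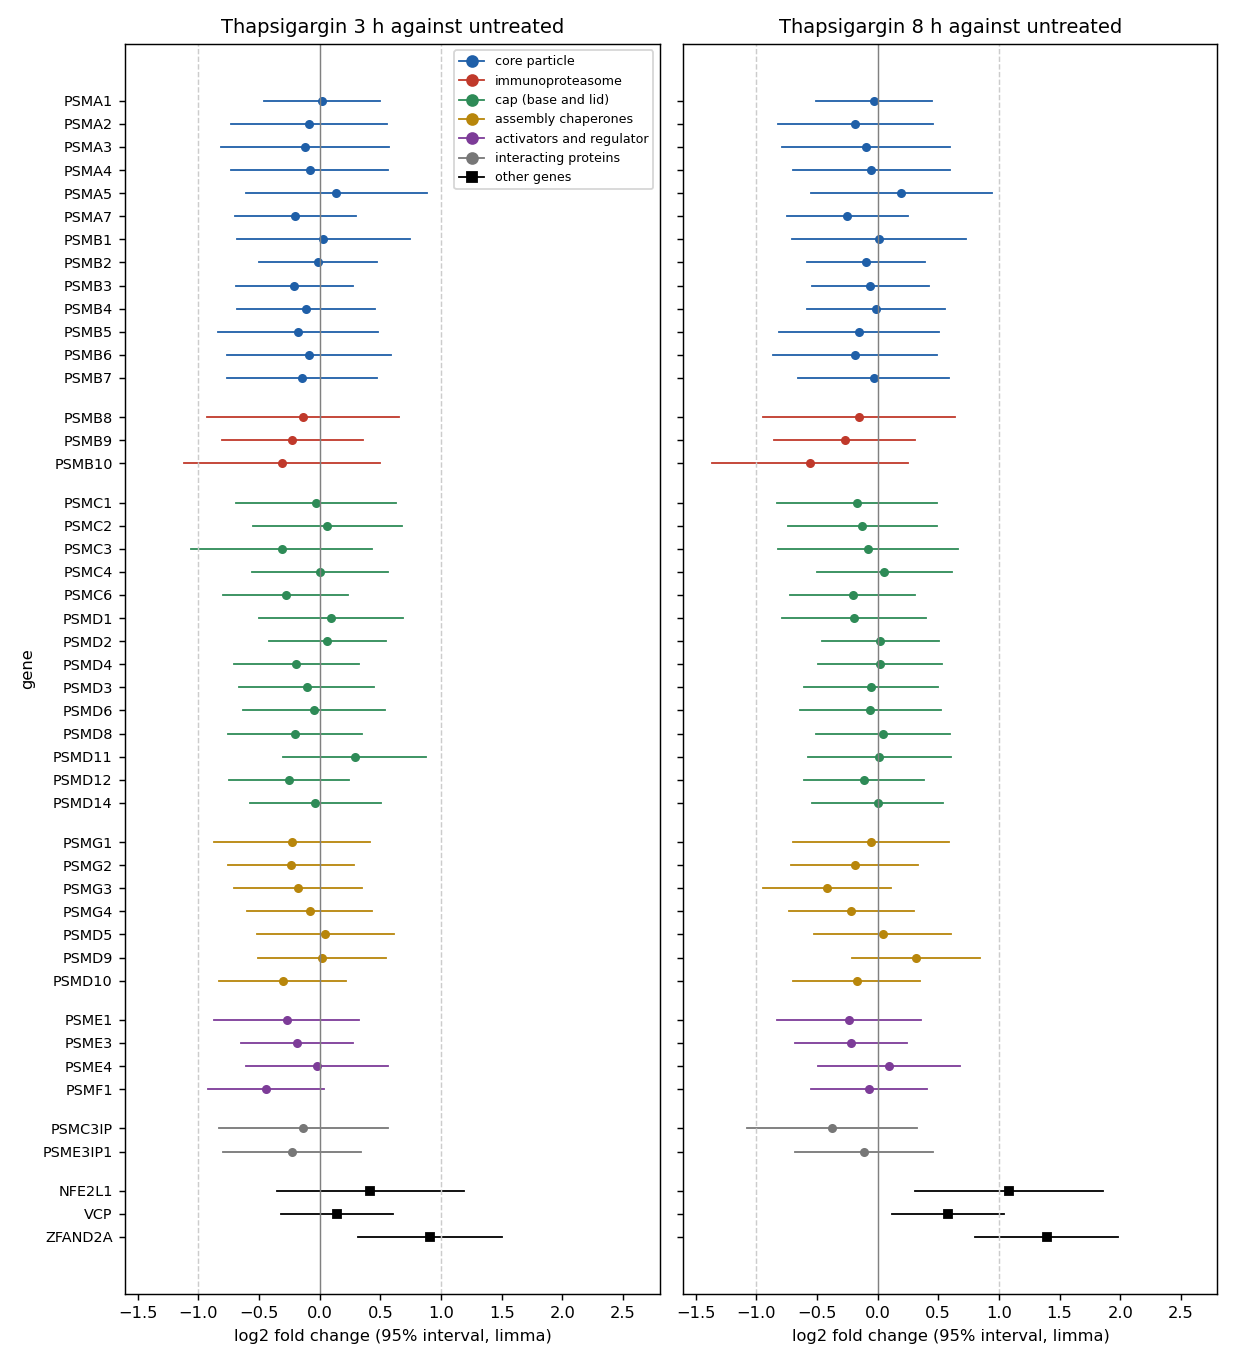
Log2 fold change of each tested proteasome gene after 3 h (left) and 8 h (right) of thapsigargin against untreated cells, with the 95% interval from limma (2 arrays a group). Colours mark the parts, and a few genes outside the proteasome are drawn below for scale. All proteasome genes lie between -0.56 and 0.32. The genes drawn below are NFE2L1 (0.42 at 3 h and 1.08 at 8 h), VCP (0.14 and 0.58) and ZFAND2A (0.91 and 1.39).

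More of the genes lay below the untreated level than above it, mainly within replicate 1. At 3 h, 33 of 43 had a log2 fold change below 0 and at 8 h 32 of 43 did, with medians of -0.12 and -0.09, against -0.02 and -0.09 for all genes. Within replicate 1, 36 of 43 were lower at 3 h and 37 at 8 h, that is 83.7% and 86.0%, against 49.3% and 58.8% of all genes and 67.2% and 63.7% of the genes with a mean signal of at least 5000. Within replicate 2, 22 of 43 were lower at 3 h and 25 at 8 h, that is 51.2% and 58.1%, against 55.7% and 58.7% of all genes and 46.7% and 50% of those bright genes. The geometric mean signal of the genes was 8835 and 7028 on the untreated arrays, 7540 and 7024 at 3 h, and 7890 and 6832 at 8 h, so untreated replicate 1 stood above the other 5 arrays. There, 36 of 43 genes had a brighter signal than in the other untreated array, with a median log2 gap of 0.41, whereas over all genes the median gap was -0.05. The treated arrays of replicate 1 were brighter as well, for 29 of 43 genes at 3 h (median gap 0.14) and 34 at 8 h (0.26). Over all genes these gaps were 0.01 and -0.04. Without untreated replicate 1 the median over the genes was 0.09 at 3 h and 0.08 at 8 h, and without untreated replicate 2 it was -0.31 and -0.27. Such a median sets treated arrays of both replicate numbers against 1 untreated array, so the gap between the numbers enters it. Taken within a replicate number, the medians were -0.20 and -0.13 in replicate 1 and -0.0012 and -0.013 in replicate 2. By part, leaving out untreated replicate 1 turned the median at 3 h to 0.13 for the core, 0.13 for the immunoproteasome, 0.12 for the cap and 0.07 for assembly, and at 8 h to 0.17 for the core and 0.13 for the cap. The ratio of the signals from the end and the start of the ACTB transcript, a measure of RNA integrity and labelling, was 2.97 and 2.86 on the untreated arrays, 4.47 and 2.75 at 3 h, and 3.49 and 3.25 at 8 h. The same ratio for GAPDH was 1.13 and 1.22 on the untreated arrays, 1.24 and 1.19 at 3 h, and 1.19 and 1.24 at 8 h. The part of RNA integrity and labelling in the shift of replicate 1 was not tested.

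**Figure D2:**
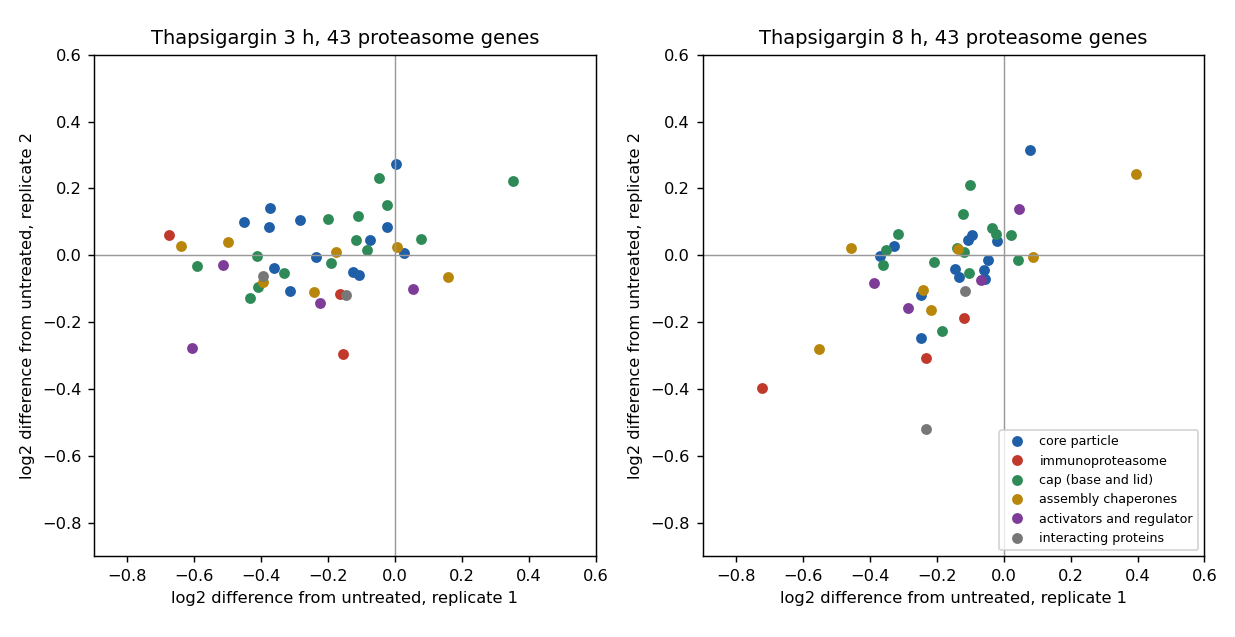
Log2 difference between each treated array and the untreated array of the same replicate number, replicate 1 on the horizontal and replicate 2 on the vertical axis, for 3 h (left) and 8 h (right). Points are the 43 genes. Most lie left of 0 in replicate 1 (36 at 3 h and 37 at 8 h), and 22 at 3 h and 25 at 8 h lie below 0 in replicate 2.

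The groups overlapped for most genes. Both treated arrays were below both untreated arrays for 7 of 43 genes at 3 h (PSMA7, PSMB3, PSMC6, PSMD12, PSMG2, PSME3 and PSMF1), that is 16.3%, against 16.5% of all genes. At 8 h this held for 6 of 43 (PSMB2, PSMB9, PSMG3, PSMD10, PSME3 and PSMF1), that is 14.0%, against 26.7% of all genes. Both treated arrays were above both untreated arrays for 0 of 43 at each time, against 14% of all genes at 3 h and 15.3% at 8 h.

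The promoters are shown because 2 control routes bear on these genes, the UPR itself and NFE2L1, and their binding motifs can be read from the sequence. RefSeq windows (GRCh38.p14) of 250 bases before to 50 bases after the transcript start were found for 37 of the 43 genes, and motifs were searched on both strands. HSPA5, the ER chaperone BiP, carries an ER stress response element, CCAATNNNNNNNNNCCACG, which in this window begins 66 bases before the start (chr9:125241366-125241434, minus strand, motif in capitals).
HSPA5: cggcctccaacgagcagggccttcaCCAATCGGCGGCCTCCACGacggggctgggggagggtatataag
HSPA5 had signals of 16615 and 18933 in untreated cells, 73709 and 41567 at 3 h, and 75398 and 44209.5 at 8 h. Its treated arrays lay above both untreated ones, but it did not pass the test (adjusted p = 0.44 at 3 h and 0.12 at 8 h). None of the 37 proteasome promoters held this motif, against 0.0769% of 35116 promoters. None held its second form, ATTGG and CCACG with 1 base between them (0.0541% of all), the UPR element core TGACGTG (1.97%) or the ATF4 composite TGATGNAAN (3.61%). With backgrounds this low a count of 0 in 37 is no result about the genes. The antioxidant response element core TGACNNNGC was found in 12 of 37, that is 32.4%, against 13.3% of all promoters. The match is a description of the letters and not a shown binding site, and the base composition of these promoters was not compared with that of the rest. The motifs were chosen after the promoters had been seen, so an excess over the background is not a test. The 35116 promoters were also not limited to genes on the array.

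The 12 genes were PSMA4, PSMB3, PSMB9, PSMC4, PSMD1, PSMD3, PSMD12, PSMG1, PSMD5, PSMD9, PSME1 and PSME4, and so came from the core, the immunoproteasome, the cap, the assembly chaperones and the activators. Windows of 4 of them follow, 1 for an alpha subunit, 1 for a beta subunit, 1 for a lid subunit of the cap and 1 for a chaperone, with the motif in capitals. PSMA4 lies at chr15:78540635-78540693 (plus strand, motif 126 bases before the start), PSMB3 at chr17:38752612-38752670 (plus strand, 104 bases before), PSMD12 at chr17:67366709-67366767 (minus strand, 165 bases before) and PSMG1 at chr21:39183601-39183659 (minus strand, 183 bases before).
PSMA4: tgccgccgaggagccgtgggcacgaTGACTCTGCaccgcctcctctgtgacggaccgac
PSMB3: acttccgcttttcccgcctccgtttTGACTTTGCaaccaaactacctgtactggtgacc
PSMD12: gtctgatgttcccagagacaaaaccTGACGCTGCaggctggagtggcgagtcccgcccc
PSMG1: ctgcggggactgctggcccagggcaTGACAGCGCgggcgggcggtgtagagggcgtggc
The 4 genes had log2 fold changes at 8 h of -0.05 for PSMA4, -0.06 for PSMB3, -0.11 for PSMD12 and -0.06 for PSMG1. Over all 12 genes with the motif the values at 8 h ran more widely, from -0.27 for PSMB9 to 0.32 for PSMD9. An interferon-type element, 2 copies of GAAA with 2 bases between them, was found in 5 of 37, that is 13.5%, against 3.57% of all promoters: PSMB4, PSMB8, PSMB10, PSMG4 and PSME1. This motif too was chosen after the promoters had been seen, so its excess is not a test.

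None of the core genes was called. The 13 tested had a median log2 fold change of -0.09 at 3 h and -0.06 at 8 h, with a standard deviation over the genes of 0.10 and 0.11, and all 13 intervals lay within 2-fold at both times. PSMA5, an alpha ring subunit, was the highest of them. It had signals of 21489 and 13122 in untreated cells, 21543 and 15851 at 3 h, and 22686 and 16309 at 8 h. Replicate 1 was brighter than replicate 2 in every group, and the treated arrays overlapped the untreated ones. The log2 fold changes were 0.14 at 3 h (95% interval -0.61 to 0.88) and 0.20 at 8 h (-0.55 to 0.94). PSMA7, another alpha subunit, was the lowest at 8 h, with 9858 and 8258 at 8 h against 11711 and 9808 in untreated cells and a log2 fold change of -0.25. PSMA1 and PSMB1 were among the flattest, with log2 fold changes of 0.02 and 0.03 at 3 h and of -0.03 and 0.01 at 8 h. PSMA8, the alpha subunit of the testis, was not tested, since its signals were 3.6 to 34.9 on all arrays.

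The cutting sites of the standard particle are PSMB5, PSMB6 and PSMB7, which cleave after hydrophobic, acidic and basic residues. PSMB5 had signals of 23497 and 14627 in untreated cells, 17176 and 15687 at 3 h, and 18708 and 14902 at 8 h. Its treated arrays fell between the 2 untreated ones, and so did all 4 treated arrays of PSMB7. The log2 fold change at 8 h was -0.15 for PSMB5 (95% interval -0.81 to 0.51), -0.19 for PSMB6 (-0.86 to 0.49) and -0.03 for PSMB7 (-0.65 to 0.59). For PSMB5 the log2 difference at 8 h was -0.33 in replicate 1, against 0.03 in replicate 2.

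None of the 3 inducible subunits was called, and all 3 had log2 fold changes below 0 at both times, with medians of -0.22 at 3 h and -0.27 at 8 h. Without untreated replicate 1 the median was 0.13 at 3 h and -0.12 at 8 h, and over the arrays left out in turn it ran from -0.47 to 0.13 at 3 h and from -0.51 to -0.12 at 8 h. PSMB8, the inducible form of PSMB5, had signals of 1991 and 1267 in untreated cells, 1776 and 1169 at 3 h, and 1833 and 1113 at 8 h, and the groups overlapped. Its log2 fold change was -0.14 at 3 h and -0.15 at 8 h (95% interval -0.95 to 0.64). PSMB9, the inducible form of PSMB6, had 724 and 622 in untreated cells, 649.7 and 507 at 3 h, and 616 and 502 at 8 h. Both arrays at 8 h were below both untreated arrays, and the log2 fold change was -0.27 (-0.85 to 0.31, adjusted p = 0.82).

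PSMB10, the inducible form of PSMB7, had the lowest log2 fold change of all 43 genes at 8 h. Its signals were 761 and 415 in untreated cells, 476 and 432 at 3 h, and 461 and 315 at 8 h. The 2 untreated arrays spanned most of this range, so the groups overlapped at both times. The log2 fold change was -0.31 at 3 h and -0.56 at 8 h (95% interval -1.37 to 0.25, adjusted p = 0.67, and 0.21 with the replicate block). Taken as the exchange of the inducible for the standard form, the log2 fold change of PSMB10 at 8 h minus that of PSMB7 was -0.53, and it was -0.62 in replicate 1 and -0.44 in replicate 2. The same difference was -0.08 for PSMB9 minus PSMB6 (0.14 and -0.31 in the replicates) and -0.00 for PSMB8 minus PSMB5 (0.21 and -0.21). These differences were not tested. Of 6 immune marker genes with a probe set, 5 stayed under the signal filter, and PTPRC, the general leukocyte antigen, ran from 5.2 to 53.3 over the 6 arrays. The 1 marker that passed the filter had log2 fold changes of 0.13 at 3 h and -0.80 at 8 h (95% interval -3.91 to 2.32). Its differences at 8 h were 0.40 in replicate 1 and -1.99 in replicate 2, and it was not called.

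**Figure D3:**
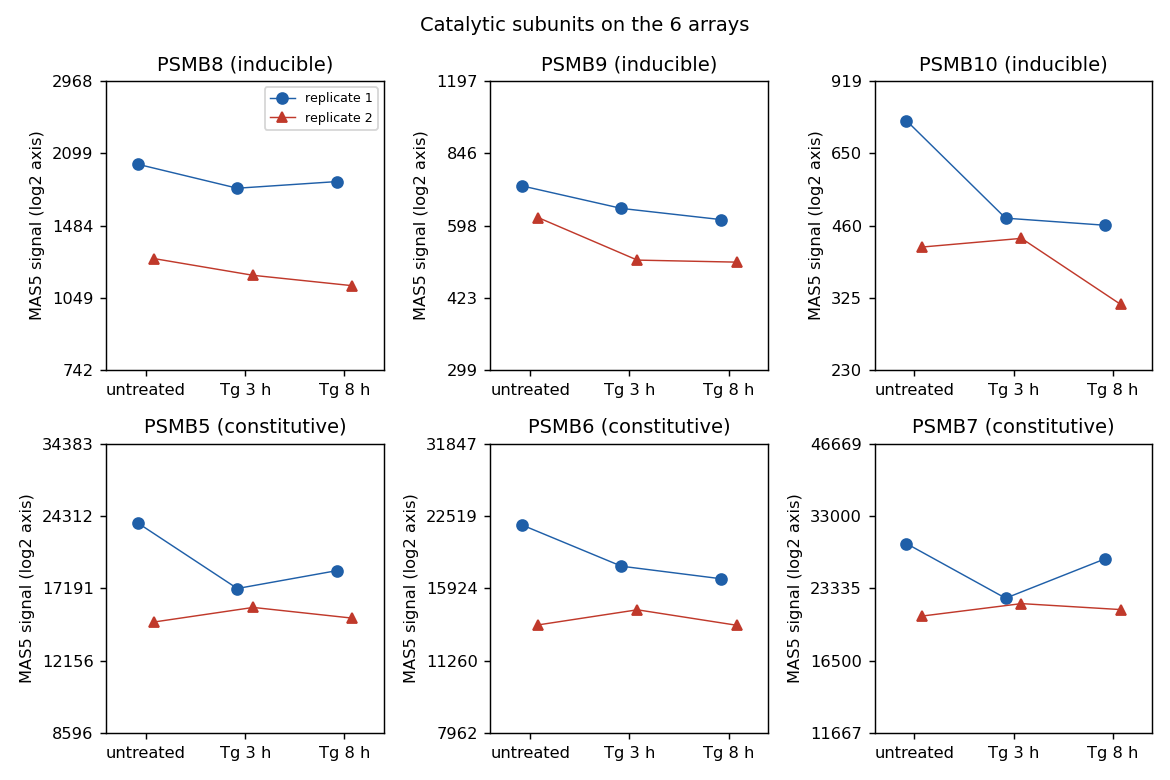
MAS5 signals of the 3 inducible cutting subunits (top) and of the standard subunits they replace (bottom) on the 6 arrays, by group, with the arrays of each replicate number joined. Each panel has its own log2 axis, so levels are not compared between panels. Replicate 1 lies above replicate 2 in every panel, and PSMB10 differs from its untreated value at 8 h by -0.72 in replicate 1 and -0.40 in replicate 2 on the log2 scale.

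None of the cap genes was called either. The 14 had a median log2 fold change of -0.04 at 3 h and -0.06 at 8 h, with a standard deviation over the genes of 0.17 and 0.09, and at 8 h they all lay between -0.21 and 0.06. PSMD11, a lid subunit that clamps cap and core together, had the highest value of all 43 genes at 3 h. Its signals were 15351 and 12654 in untreated cells, 19612 and 14763 at 3 h, and 15818 and 12540.3 at 8 h. It was higher at 3 h in each replicate, by 0.35 and 0.22 on the log2 scale, and at 8 h the differences were 0.04 and -0.01. The log2 fold change was 0.29 at 3 h (95% interval -0.30 to 0.88, adjusted p = 1.00, and 0.34 with the replicate block) and 0.02 at 8 h. Its second probe set had -0.16 at 3 h, so the 2 probe sets of the gene did not share a direction.

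Among the ATPases of the cap, PSMC3 had the lowest log2 fold change of the 43 genes at 3 h after PSMF1. Its signals were 5714 and 3374 in untreated cells, 3793 and 3302 at 3 h, and 5315 and 3250.5 at 8 h. Only untreated replicate 1 and the 8 h array of replicate 1 stood high, and the groups overlapped. The log2 fold change was -0.31 at 3 h (95% interval -1.06 to 0.43) and -0.08 at 8 h. PSMC6, also an ATPase, had 11663 and 12147 at 3 h against 15742 and 13279.9 in untreated cells, with no overlap and a log2 fold change of -0.28 (-0.80 to 0.24). PSMD1, the scaffold of the base to which the ubiquitin receptors dock, had 13363 and 9142 in untreated cells, 12938 and 10742 at 3 h, and 10409.7 and 8965 at 8 h. PSMD1 had log2 fold changes of 0.09 at 3 h and -0.19 at 8 h. PSMD14, the enzyme of the lid that cuts the ubiquitin chain off, had 17119 and 15897 at 8 h against 18636 and 14601 in untreated cells and a log2 fold change of 0.00.

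None of the 7 assembly chaperones was called. They had medians of -0.18 at 3 h and -0.17 at 8 h, and held both the lowest and the highest value at 8 h outside the immunoproteasome. PSMG3, a chaperone of the alpha ring, had signals of 3099.7 and 2301 in untreated cells, 2622 and 2132 at 3 h, and 2115 and 1897 at 8 h. Both arrays at 8 h were below both untreated arrays. The fit gave PSMG3 a log2 fold change at 8 h of -0.42 (95% interval -0.94 to 0.11), with the smallest adjusted p of the 43 genes, 0.61, or 0.11 with the replicate block. PSMD9, a chaperone of the base, went the other way. It had 3863 and 3223 in untreated cells, 3881 and 3278 at 3 h, and 5077 and 3812 at 8 h. At 8 h replicate 1 lay above both untreated arrays and replicate 2 between them. The log2 fold change at 8 h was 0.32 (-0.21 to 0.85, adjusted p = 0.73, and 0.17 with the block), and it was 0.39 in replicate 1 and 0.24 in replicate 2. A dimmer probe set of PSMD9 had 1.24 at 3 h and 0.55 at 8 h. POMP, the maturation factor of the core that lies outside the naming rule, had 29912 and 20492 in untreated cells, 25269 and 18946 at 3 h, and 25086 and 18486 at 8 h, a log2 fold change of -0.20 at 8 h.

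The 4 activators and inhibitors had medians of -0.23 at 3 h and -0.15 at 8 h, and none was called. PSMF1 had the lowest log2 fold change of all 43 genes at 3 h. It encodes PI31, a regulator first described as a proteasome inhibitor. Its signals were 2489.5 and 2591 in untreated cells, 1636 and 2137 at 3 h, and 2377 and 2459.9 at 8 h. Both arrays at 3 h were well below both untreated arrays, and those at 8 h were only just below them. The log2 fold change was -0.44 at 3 h (95% interval -0.92 to 0.04, adjusted p = 1.00, and 0.27 with the block) and -0.07 at 8 h. A second probe set of the gene had -0.41 at 3 h, and the 2 dimmer ones had 0.21 and 0.00. At 8 h these 3 probe sets had -0.34, 0.08 and -0.61, so the value of -0.07 was not shared by all. PSME1 and PSME3, subunits of the PA28 activators that open the gate without ATP, had -0.24 and -0.22 at 8 h. PSME4, the single-chain activator PA200, had 3215 and 4276 in untreated cells, 3337 and 3989 at 3 h, and 3321 and 4711 at 8 h, and a log2 fold change of 0.09 at 8 h.

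The 2 genes that are only named after a subunit encode proteins that bind one. PSMC3IP, which acts in meiotic recombination, had signals of 1279.8 and 954 in untreated cells, 1156 and 878 at 3 h, and 1090.0 and 666 at 8 h. The fit gave it a log2 fold change at 8 h of -0.38 (95% interval -1.07 to 0.32, adjusted p = 0.77). PSME3IP1 had -0.11 at 8 h. Without these 2 genes the statement that no gene was called is the same.

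No proteasome gene was called between the 2 times of treatment, which were set against each other directly. At 8 h against 3 h, 0 of 43 passed the test, as did 0% of all genes, and 0 of 43 had an unadjusted p under 0.05, against 7.82%. With the replicate block 0 of 43 passed, against 3.25% of all genes, and the local pooled error test called 0 of 43, against 0.312%. With the block, 4 genes had an unadjusted p under 0.05, against 18.9% of all genes. PSMF1 (0.37) and PSMD9 (0.30) were higher at 8 h, and PSMD1 (-0.29) and PSMD11 (-0.27) were lower, as log2 fold changes of 8 h over 3 h.

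The choice of probe set mattered for single genes. Of the 20 genes read by at least 2 tested probe sets, 14 had only negative log2 fold changes at 8 h, 2 only positive ones and 4 both. Of all 75 tested probe sets, 0 passed the test without the block or by the local pooled error test. With the block 1 passed, lower at 8 h. Over all genes at 8 h, 3.79% were called lower with the block and 0.21% without it, and the local pooled error test called 1.26%. The 1 probe set was the dimmer one of PSMA2, an alpha ring subunit, with 1242 and 872 at 8 h against 1831 and 1376 in untreated cells. Its change was -0.61 on the log2 scale (adjusted p = 0.50, and 0.042 with the replicate block). The brighter probe set of PSMA2 had -0.18, and it stands for the gene here. Among the 43 probe sets that stand for a gene, 4 are marked in the array design as open to cross-hybridisation and 16 as shared by transcripts.

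Among genes that work with the proteasome, 1 of 13 partners and 2 of 7 regulators were called higher at 8 h with the replicate block, against 4.76% of all genes, and 0 of 6 ubiquitin genes and shuttle factors and 0 of 11 interferon and antigen processing genes were called. Of the 13 partners of the particle, ZFAND2A, a stress-inducible protein that binds the cap, had signals of 4243 and 3174 in untreated cells, 7797 and 6079.7 at 3 h, and 11133 and 8328 at 8 h. The groups did not overlap at either time. Its log2 fold change was 0.91 at 3 h and 1.39 at 8 h (95% interval 0.80 to 1.98), with an adjusted p of 0.070 at 8 h, above the threshold of 0.05, and 0.00016 with the replicate block. It was the only partner called by limma with the block or by the local pooled error test, and the other 12 had log2 fold changes at 8 h between -0.20 and 0.27. Of 7 regulators, NFE2L1 had 1895 and 3331 in untreated cells, 2655 and 4246 at 3 h, and 4692 and 6045 at 8 h. Both arrays at 8 h were above both untreated arrays, with a log2 fold change of 1.08 (0.31 to 1.86, adjusted p = 0.29, and 0.0019 with the block). VCP, the ATPase that extracts proteins from the ER membrane, had 5345 and 5979 in untreated cells, 5800.0 and 6704 at 3 h, and 8396 and 8538 at 8 h. This made 0.58 on the log2 scale at 8 h (adjusted p = 0.35, and 0.016 with the block). None of 7 regulators, 13 partners, 6 ubiquitin genes and shuttle factors and 11 interferon and antigen processing genes passed the test without the block. Before adjustment, p was under 0.05 at 8 h for 2 regulators and 1 partner, all higher, and for 2 interferon and antigen processing genes, both lower, against 12.1% of all genes in either direction, and the local pooled error test called ZFAND2A alone.

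**Figure D4:**
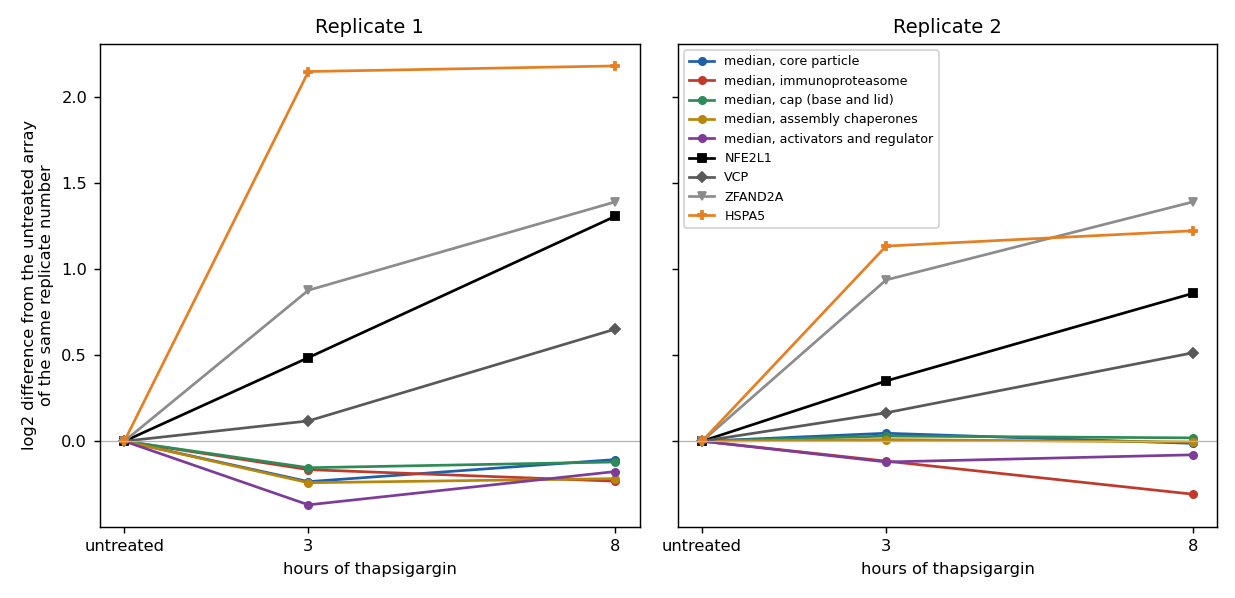
Log2 difference from the untreated array of the same replicate number over the hours of thapsigargin, replicate 1 on the left and replicate 2 on the right. Lines are the medians of the 5 parts of the proteasome and single genes outside it. The part medians lie between -0.37 and 0.05, while NFE2L1 is higher at 8 h by 1.31 and 0.86 and ZFAND2A by 1.39 and 1.39 in the 2 replicates.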

How the data were processed

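Total RNA of Daoy cells was hybridised to 6 Affymetrix HG-U133 Plus 2.0 arrays. Linear signal intensities from the MAS5 algorithm, scaled on each array to a trimmed mean of 500, are what the authors deposited, and their log2 was taken here. No depth applies to arrays, and their number limits the precision. The methods describe 2 experiments, and the p-values reflect only how far these arrays vary. Probe sets were named from the platform annotation, in which 41097 of 54675 had 1 symbol, 1801 several and 11777 none, and a gene was read from the brightest probe set named to it alone. A signal of 100 or more on 2 or more arrays was required, which left 27616 probe sets, and these were fitted with limma 3.58.1 (R 4.3.3; lmFit, eBayes with an intensity trend, group only, all 6 arrays, two-sided), and p-values were adjusted over all of them by Benjamini-Hochberg. The fit was tested on simulated data. A replicate block, a local pooled error test, other normalizations and filters, and leaving out each array were the alternatives.

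The members and the gene lists (parts, partners, regulators, ubiquitin genes, interferon genes, UPR genes, neural and immune markers) were chosen with earlier results of these data known, and the promoter motifs after the promoters had been seen. Named with all array values were genes past the threshold with or without the block, the 3 highest and 3 lowest log2 fold changes at each time and the immunoproteasome genes, and of the lists up to 4 genes past the threshold, with NFE2L1, POMP, HSPA5 and DDIT3. The array values of OLIG2, GLI2, SOX2 and SOX9 stand in the closing section. PSMB5, PSMB6, PSMB7, PSMA7, PSMC6, PSMD14 and others were added after their values were seen.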

Additional observations from a re-analysis of the deposited data

How the results depend on the processing

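The count of proteasome genes called was 0 at 3 h, at 8 h and at 8 h against 3 h, in each direction, under every alternative that kept all 6 arrays. Limma without the intensity trend called 0 of the 12839 genes tested in each comparison, so a 0 there is no result about the proteasome genes. The labels do not say whether arrays of 1 replicate number share an experiment. Deviations from the group means correlated at 0.259 to 0.323 between same-numbered arrays over all probe sets tested and at 0.655 to 0.702 over those with a signal of at least 500. With the replicate block, 150 of all genes were called higher and 10 lower at 3 h, against 9 and 0 without it, and 611 higher and 486 lower at 8 h, against 83 and 27. None of the 43 proteasome genes was among them, and the block changed the call of NFE2L1, VCP and ZFAND2A among the genes around the proteasome.

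Medians moved more than calls. Centring each array on its median moved the 8 h median log2 fold change to 0.00129 for all members, 0.0313 for the core, -0.177 for the immunoproteasome and -0.0526 for activators and inhibitor. Averaging all probe sets of a gene gave -0.15 for the core and -0.23 for activators and inhibitor at 8 h, and quantile normalization gave -0.20 for the immunoproteasome. Leaving out each array in turn moved the 3 h medians over -0.305 to 0.0904 for all members, -0.32 to 0.13 for the core, -0.47 to 0.13 for the immunoproteasome, -0.26 to 0.12 for the cap, -0.369 to 0.0699 for assembly and -0.424 to -0.0315 for activators and inhibitor. At 8 h the ranges were -0.270 to 0.0796, -0.27 to 0.17, -0.51 to -0.12, -0.23 to 0.13, -0.32 to -0.0020 and -0.250 to -0.0388 in the same order. The cause was not tested.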

Other observations

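DDIT3, the stress-induced transcription factor CHOP, had signals of 405 and 1654 in untreated cells, 19271 and 15024.5 at 3 h, and 20009 and 15123 at 8 h, so the 2 untreated arrays already differed while all treated arrays lay far above them. Its log2 fold change was 4.41 at 8 h (adjusted p = 0.021). HERPUD1, an ER membrane protein of ER-associated degradation that binds ubiquilins, had 1376 and 6623 in untreated cells, 29829 and 23064.5 at 3 h, and 35131 and 23998 at 8 h (adjusted p = 0.079 at 8 h, and 0.0060 with the replicate block). SEL1L, the partner of the ubiquitin ligase in the ER membrane, had 2221 and 2579.9 in untreated cells, 6989 and 6201 at 3 h, and 17719.6 and 13732 at 8 h. It rose at 8 h (limma, adjusted p = 0.0054). HERPUD1 and SEL1L were named because their changes were among the largest of the UPR genes listed. They therefore do not stand for the genes of ER-associated degradation in general, and no contrast with the 43 proteasome genes is drawn from them.

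The neural and progenitor markers called with the replicate block were the transcription factors OLIG2, GLI2, SOX2 and SOX9. OLIG2 had signals of 74.9 and 184.5 in untreated cells, 177 and 320.1 at 3 h, and 398 and 481 at 8 h, with both treated arrays above both untreated ones only at 8 h (adjusted p = 0.21, and 0.0091 with the block). GLI2 had 467 and 475 in untreated cells, 579 and 394 at 3 h, and 196 and 219 at 8 h (adjusted p = 0.17, and 0.025 with the block). SOX2 had 1359 and 1562 in untreated cells, 498 and 744 at 3 h, and 818 and 525 at 8 h, below both untreated arrays at both times (adjusted p = 0.20 at 8 h, and 0.030 with the block). SOX9 had 1419 and 986 in untreated cells, 1392 and 985 at 3 h, and 772 and 601 at 8 h (adjusted p = 0.38, and 0.017 with the block).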
